A study of Mus musculus with 10 samples.

Results

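Transcript levels of 45 genes of the Wnt pathway were examined in the CD45-depleted fraction of lung tumours from KP and KPG1 mice, which model lung adenocarcinoma. The set was listed by gene symbol, as 16 Wnt ligands, 10 Frizzled receptors, 8 co-receptors and other receptors, 2 genes of ligand secretion, 5 feedback genes and 4 secreted antagonists. It was chosen with earlier results of these data known. Those results had named Fzd7, so the values of Fzd7 given here are not an independent test. All 45 symbols were found among the 39017 genes counted, and 33 of them passed the filter on low counts that left 16216 genes for testing. RNA sequencing of polyadenylated RNA was performed on 10 lung tumours, 5 per group, from C57BL/6 males sacrificed 18 weeks and 6 days after tumour initiation. In both groups an adenovirus carried Cre under the surfactant protein C (SPC) promoter into the trachea, so recombination was restricted to cells that use this promoter. KPG1 mice differed from KP mice by Slc2a1, which encodes the glucose importer Glut1 and was labelled homozygous fl/fl in KPG1. For the KP group, the genotype label reads heterozygous while the description of the same libraries reads wild type, so KP denotes the control group of the labels, and the number of intact Slc2a1 copies in it is not settled by the sources used here. Tumours were dissected, dissociated and depleted of CD45-positive cells on magnetic beads, and RNA was taken from what remained. Nothing in the labels says whether each tumour came from a separate mouse, so p-values measure the spread between these 10 samples.

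Wnt proteins are secreted lipid-modified ligands that bind Frizzled receptors together with the co-receptors Lrp5 or Lrp6. Binding stops the destruction complex from degrading β-catenin, which then enters the nucleus and acts with TCF/LEF factors, while Ror and Ryk receptors serve branches that do not use β-catenin. In the lung, Wnt signals from stroma and epithelium sustain progenitor activity of alveolar type 2 cells, and several inhibitors of the pathway, among them Axin2, Nkd1, Notum, Rnf43 and Znrf3, are known target genes that dampen it again.

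Libraries held 32427029 to 49534284 counts. Levels are given as CPM (counts relative to library size, after TMM scaling), or on the log2 scale with a prior count of 2, and levels of different genes are compared only as RPKM, CPM divided by the merged exon length in kilobases. Slc2a1 in KPG1 was at 49.2% of its KP level (102 ± 25.4 CPM in KP and 50.1 ± 10.1 CPM in KPG1, SD, n = 5 each), with no overlap and an exact two-sided permutation p of 0.00794, the lowest possible with 5 tumours a group. In the fit across all genes, its limma adjusted p was 0.0675. The epithelial gene Epcam was present at 433 ± 115 CPM in KP and 439 ± 55.6 CPM in KPG1, while the leukocyte gene Ptprc, which encodes CD45, was low but not 0 (7.04 ± 1.77 and 7.75 ± 2.53 CPM). Markers of the cell types such a fraction can hold were summed per tumour, and no marker of any list passed the threshold. All 10 alveolar type 2 markers had higher fitted values in KPG1 (summed CPM 18941 to 64418 in KP, 52056 to 96325 in KPG1), as did all 8 proliferation markers (49.8 to 285 and 249 to 433) and all 12 endothelial markers (514 to 1424 and 675 to 1959). Their median log2 fold changes were 0.98, 0.90 and 0.31, against 0.02 over all genes tested. The shares at an unadjusted limma p under 0.05 were 40%, 37.5% and 0%, against 11.6% of all genes tested. The shares without overlap between groups were 20%, 25% and 0%, against 2.81% of all genes tested. The 11 fibroblast markers summed to 97.6 to 259 CPM in KP and 163 to 272 CPM in KPG1, the 10 pericyte and smooth muscle markers to 82.9 to 304 and 123 to 211, and the 6 mesothelial markers to 514 to 1062 and 313 to 504. Of the 10 fibroblast markers tested 7 were fitted higher and 3 lower (median log2 fold change 0.42). Of the pericyte and smooth muscle markers 9 were fitted higher and 1 lower (median 0.33). In both lists 10% were at an unadjusted limma p under 0.05 and 0% lacked overlap. Only 3 of the 6 mesothelial markers (Msln, Upk3b, Wt1, Lrrn4, Rspo1 and Krt19) passed the filter on low counts. These 3 were all fitted lower in KPG1, and each overlapped between groups. The sum over the 6 did not overlap, but it is not broken down by marker here and is not a measure of mesothelial cells. The 6 epithelial markers summed to 4786 to 6134 CPM in KP and 3922 to 4350 CPM in KPG1, with 2 of the 6 fitted higher, 4 lower and a median log2 fold change of -0.05. Of these, Krt8 and Krt18 did not overlap between groups (log2 fold change -0.67 and -0.87, limma adjusted p 0.0699 and 0.0501), and the other 4 did. The 11 immune markers, which share Lyz2 with the alveolar type 2 list, summed to 950 to 5572 and 3840 to 9188 CPM. Lyz2 and Cd74 made up most of this sum, and of the 9 immune markers tested 4 were fitted higher and 5 lower, with a median log2 fold change of -0.26 and 2, Itgam and S100a8, lower in KPG1 without overlap. The 8 alveolar type 1 markers summed to 1096 to 3509 and 1967 to 3617, the 6 club markers to 177 to 278 and 228 to 452, and the 8 ciliated markers to 5.12 to 13.3 and 5.05 to 14.7. In that order, 6, 3 and 2 markers were fitted higher and 2, 3 and 6 lower, with median log2 fold changes of 0.30, 0.04 and -0.52. The shares at an unadjusted limma p under 0.05 were 0%, 33.3% and 25%, and 0% in each list lacked overlap. No marker of these lists was at 0 in all tumours, and their part in the results on Wnt genes was not tested. In bulk samples fewer cells of a type and less RNA per cell cannot be told apart.

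Of the 33 members tested, 1 passed an adjusted p of 0.05, and it was the receptor gene Fzd7, which was higher in KPG1. Across all genes tested this threshold was passed by 28, or 0.173%, with 0.0617% higher and 0.111% lower in KPG1. At an unadjusted p under 0.05 there were 3 members (9.09% of those tested), Fzd7, Fzd2 and Wnt5a, all higher in KPG1, against 11.6% of all genes (5.26% higher and 6.31% lower). The groups did not overlap for 1 member (3.03%), Fzd7, against 2.81% of all genes (1.05% higher and 1.76% lower). Fitted values were higher in KPG1 for 20 members and lower for 13 (60.6% higher, against 52.7% of all genes), and their median log2 fold change was 0.18, against 0.02 over all genes. For 30 of the 32 tested members other than Fzd7 the 95% interval of the log2 fold change spanned 0. For 14 of the 32 it stayed within 1 log2 unit in either direction (a 2-fold difference), and for the other 18 it reached further. No member's fitted direction differed between TMM scaling and DESeq2's size factors.

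**Figure D1:**
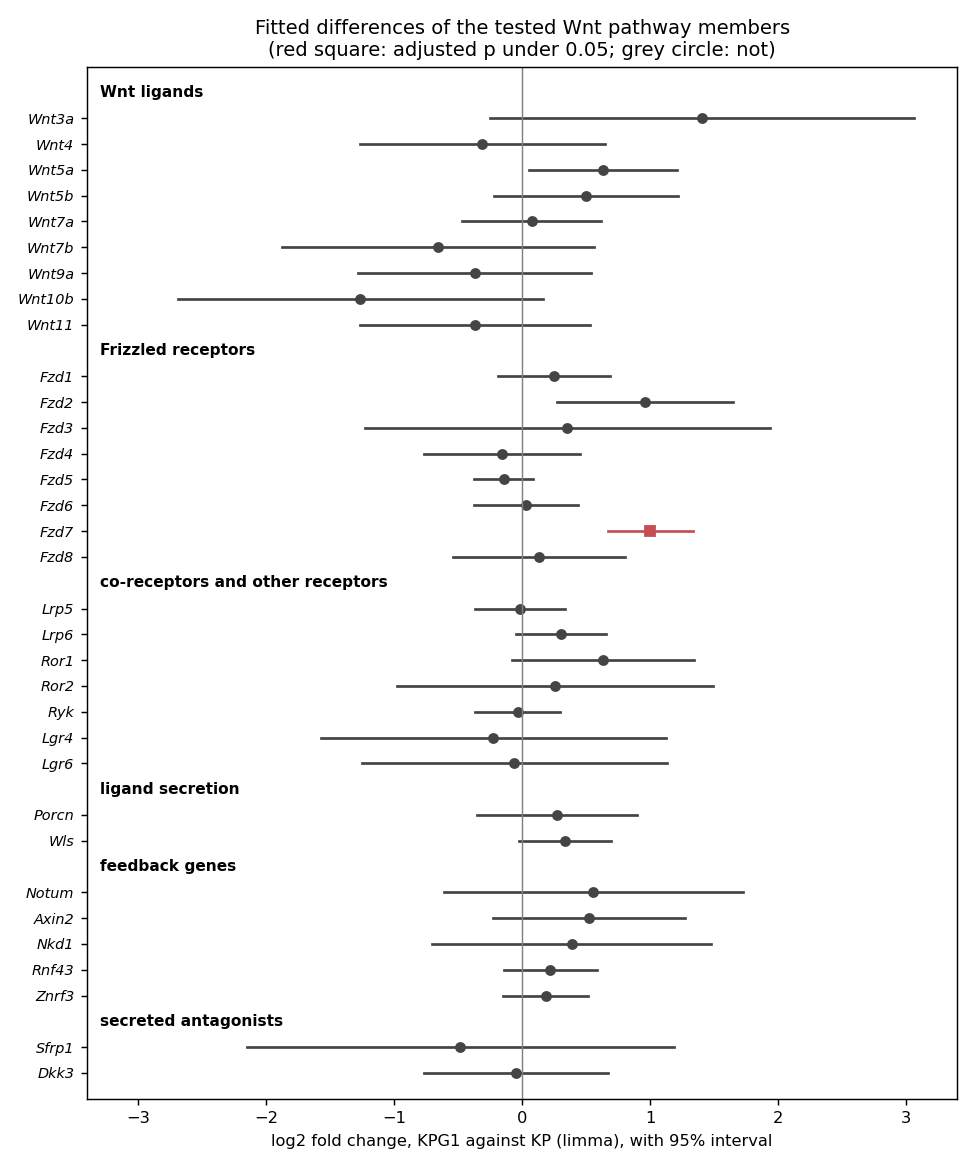
Log2 fold change of each of the 33 tested members, KPG1 against KP, from the limma fit across 16216 genes, with 95% intervals as horizontal lines and members grouped by role. Fzd7 at 1.00 is the red square, the member past an adjusted p of 0.05, and of the other 32 intervals only those of Fzd2 and Wnt5a leave out 0.

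Among the 16 ligands, 9 were tested, with 4 fitted higher and 5 lower in KPG1 and none past the threshold (limma adjusted p 0.389 to 0.933, 1 ligand at an unadjusted p under 0.05). Wnt7a, Wnt5a and Wnt7b had the highest levels per length, with mean values of 11.4, 2.70 and 2.07 RPKM over the 10 tumours. Wnt7a (ENSMUSG00000030093, chromosome 6, 91363981 to 91411363, minus strand, mm10) and Wnt7b (ENSMUSG00000022382, chromosome 15, 85535437 to 85582473, minus strand) encode closely related ligands that can signal through β-catenin. Wnt7a stood at 30.8, 48.6, 51.3, 30.5 and 20.004 CPM in KP 1 to KP 5 and at 43.7, 30.5, 30.5, 42.4 and 33.7 CPM in KPG1 1 to KPG1 5. The KPG1 tumours lay within the range of the KP tumours, which held both the highest and the lowest value. KPG1 differed from KP by a log2 fold change of 0.07 (SE 0.25, 95% interval -0.47 to 0.61, limma adjusted p 0.933). Wnt7a made up 63.7% ± 11.1 of the summed ligand RPKM in KP and 64.5% ± 5.21 in KPG1 (SD, n = 5 each), and the summed ligand RPKM itself was 18.0 ± 6.02 and 17.6 ± 1.76.

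Wnt7b was at 11.1, 4.87, 35.9, 12.1 and 3.97 CPM in KP 1 to KP 5 and at 3.34, 5.79, 7.59, 10.1 and 6.81 CPM in KPG1 1 to KPG1 5. KP 1, KP 3 and KP 4 lay above all KPG1 tumours, KP 3 by far the most, and KP 2 and KP 5 lay within the KPG1 range. Its log2 fold change was -0.66 (SE 0.56, 95% interval -1.87 to 0.56, limma adjusted p 0.682), and -0.21 without KP 3, -0.43 without KPG1 1 and -1.02 without KP 5. An antisense gene, AU022754, overlaps Wnt7b, and the strand setting of the counting is not given in the sources used here.

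Wnt5a (ENSMUSG00000021994, chromosome 14, 28504750 to 28527448, plus strand) encodes a ligand best known for signalling without β-catenin, through Ror receptors among others. Its level was 20.3, 7.86, 14.6, 24.8 and 16.8 CPM in KP 1 to KP 5 and 24.3, 34.2, 20.6, 21.6 and 26.4 CPM in KPG1 1 to KPG1 5. Of the KP tumours, KP 4 reached into the KPG1 range and KP 2 stood lowest. For Wnt5a the log2 fold change was 0.63 (SE 0.27, 95% interval 0.05 to 1.21), with an unadjusted p of 0.0358 and a limma adjusted p of 0.389. Without KP 2 the log2 fold change was 0.40 and the adjusted p 0.507. The antisense gene Gm2670 lies within Wnt5a, so reads of the pair may not have been separated. The other 6 tested ligands, Wnt3a, Wnt4, Wnt5b, Wnt9a, Wnt10b and Wnt11, were scarce, with group means from 0.0432 RPKM for Wnt10b in KPG1 to 0.435 RPKM for Wnt4 in KP. The 2 ligands with the lowest and the highest fitted values among all members were in this group, Wnt10b at a log2 fold change of -1.26 (95% interval -2.69 to 0.16) and Wnt3a, a classical β-catenin ligand, at 1.402 (95% interval -0.25 to 3.06). The 7 ligands that were not tested had at most 26 counts in any tumour (Wnt10a 26, Wnt2 24, Wnt2b 11, Wnt16 7, Wnt1 5, Wnt6 2 and Wnt3 1).

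**Figure D2:**
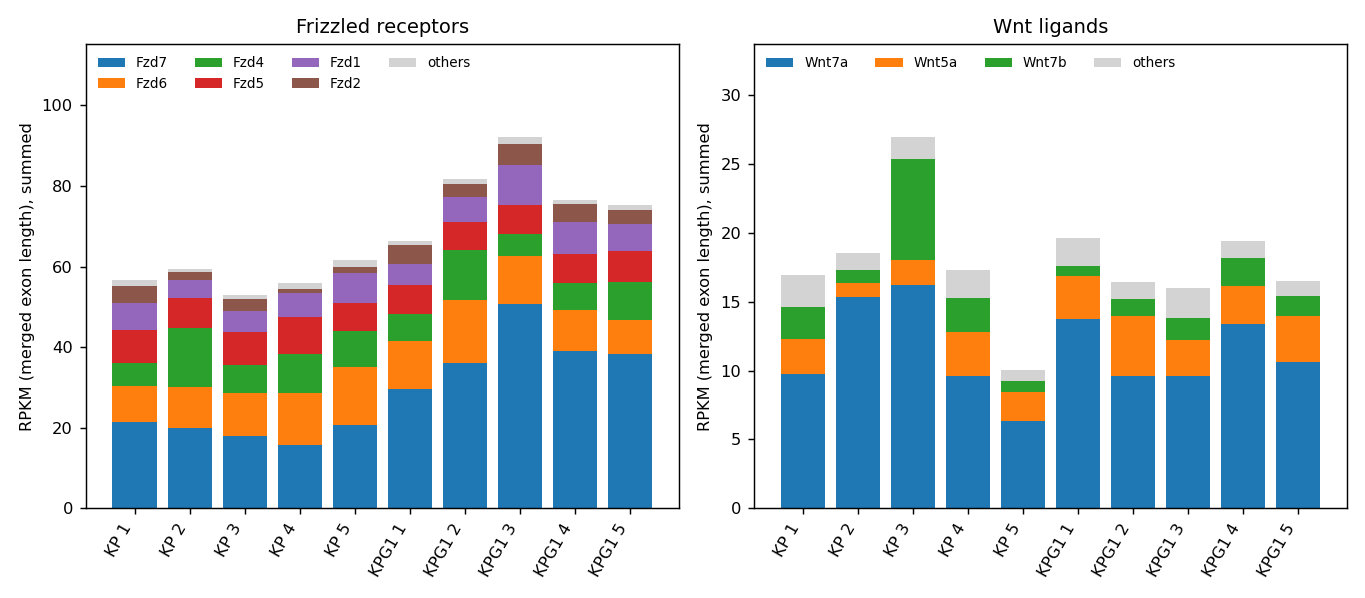
Summed RPKM (vertical axis, linear) of the 10 Frizzled receptor genes (left) and the 16 Wnt ligand genes (right) in each of the 10 tumours, with the genes as stacked segments and the scarcer genes pooled as others. The Fzd7 segment is taller in each KPG1 tumour than in any KP tumour, while Wnt7a is the largest ligand segment in all 10 tumours and total ligand RPKM is 18.0 in KP and 17.6 in KPG1 on average.

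Ligands are palmitoylated by the acyltransferase Porcn and carried to the cell surface by Wls. Wls was the member with the highest level per length, at 43.8 RPKM in KP and 54.2 RPKM in KPG1. In CPM, Wls was 385 ± 92.5 in KP and 477 ± 43.9 in KPG1 (SD, n = 5 each), with a log2 fold change of 0.34 (95% interval -0.02 to 0.69, limma adjusted p 0.460). Porcn was 40.2 ± 11.2 and 50.04 ± 18.1 CPM, with a log2 fold change of 0.27 (95% interval -0.35 to 0.90, limma adjusted p 0.752).

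Among the 10 Frizzled genes, 8 were tested, 6 with higher and 2 with lower fitted values in KPG1, and 1 past the threshold. Fzd7 (ENSMUSG00000041075, chromosome 1, 59482424 to 59486955, plus strand) encodes a receptor for several Wnt ligands and has been studied in stem cells and epithelial cancers. Its level was 97.2, 90.4, 81.4, 71.5 and 93.7 CPM in KP 1 to KP 5 and 134, 163, 230, 177 and 173 CPM in KPG1 1 to KPG1 5. The lowest KPG1 tumour, KPG1 1, lay above the highest KP tumour, KP 1. Mean log2 CPM was 6.43 ± 0.18 in KP and 7.43 ± 0.28 in KPG1 (SD, n = 5 each), and the exact two-sided permutation p of the difference was 0.00794, again the lowest possible. In limma the log2 fold change was 1.00 (SE 0.15, 95% interval 0.67 to 1.33) and the adjusted p was 0.0314, which placed Fzd7 at rank 16 by p among all genes and at rank 6 among the genes higher in KPG1. DESeq2 gave a log2 fold change of 1.00 and an adjusted p of 5.89e-07, and edgeR's quasi-likelihood test gave 1.01 and 0.0280. The call was sensitive to the loss of a library although the size of the difference was not. Leaving out each tumour in turn gave log2 fold changes from 0.90 to 1.08. The adjusted p stayed under 0.05 without KP 2, KP 5 or KPG1 1 (0.0440, 0.0214 and 0.0356), and was above it without KP 1, KP 3 or KP 4 (0.0682, 0.0665 and 0.0850) and without KPG1 2, KPG1 3, KPG1 4 or KPG1 5 (0.0685, 0.0766, 0.0953 and 0.0756). With the sample number from the titles as a covariate the log2 fold change was 0.78 and the adjusted p 0.298; these numbers run from 1 to 10 in KPG1 and from 11 to 16 in all KP tumours except KP 5, which has 6, so number and genotype are largely confounded. No annotated gene overlaps Fzd7.

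**Figure D3:**
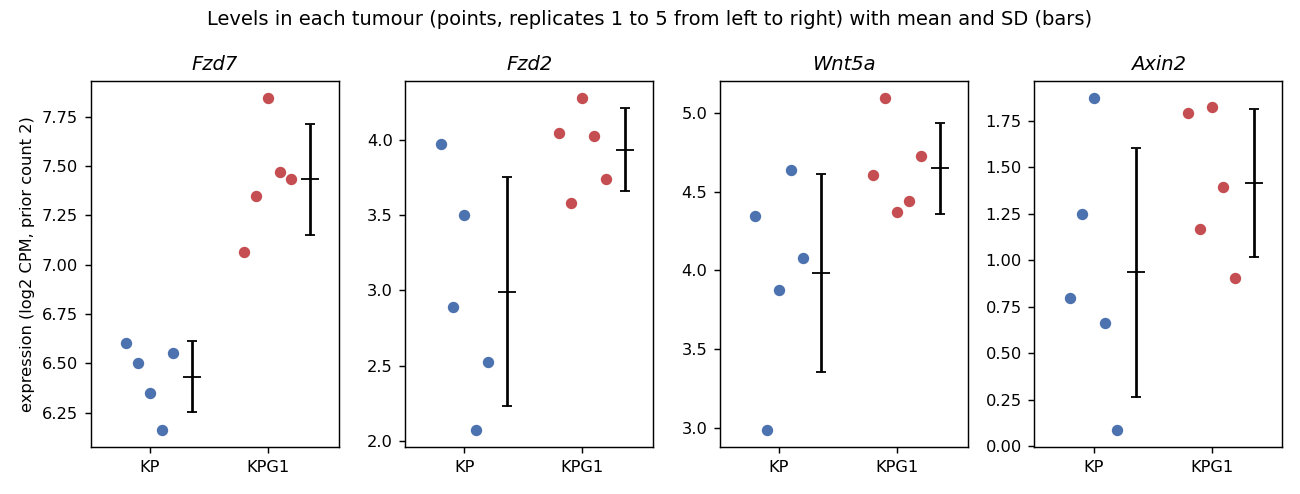
Expression of Fzd7, Fzd2, Wnt5a and Axin2 in log2 CPM (vertical axes, each with its own range that does not start at 0) in the 5 KP and 5 KPG1 tumours, 1 point per tumour, with bars for the mean ± SD. The Fzd7 points form 2 separate groups with means of 6.43 and 7.43, while the points of the other genes overlap between KP and KPG1.

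Per length, Fzd7 had the highest level of the Frizzled genes in both groups, at 19.2 RPKM in KP and 38.7 RPKM in KPG1, followed over all tumours by Fzd6 at 11.5 RPKM and Fzd4 at 8.66 RPKM. Its share of the summed Frizzled RPKM was 37.9%, 33.6%, 34.0%, 28.3% and 33.5% in KP 1 to KP 5 and 44.5%, 44.0%, 55.1%, 51.1% and 50.7% in KPG1 1 to KPG1 5. The shares did not overlap between groups, and their means were 33.4% ± 3.42 and 49.1% ± 4.71 (SD, n = 5 each). Summed Frizzled RPKM was 57.3 ± 3.39 in KP and 78.4 ± 9.51 in KPG1. These shares and sums contain the Fzd7 values already described and are given without a test.

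Fzd7 is shown by the sequence around its start because it was the member past the threshold, and Axin2, a target gene read as a reporter of β-catenin activity, is shown beside it. Both windows cover 250 bases before to 50 bases after the start, are from RefSeq on GRCm38.p6, and read 5′ to 3′ on the plus strand at chr1:59481897-59482196 for Fzd7 and chr11:108920099-108920398 for Axin2. Capitals mark matches to the GC box CCGCCC on either strand, and 2 of the matches in Fzd7 overlap.
Fzd7: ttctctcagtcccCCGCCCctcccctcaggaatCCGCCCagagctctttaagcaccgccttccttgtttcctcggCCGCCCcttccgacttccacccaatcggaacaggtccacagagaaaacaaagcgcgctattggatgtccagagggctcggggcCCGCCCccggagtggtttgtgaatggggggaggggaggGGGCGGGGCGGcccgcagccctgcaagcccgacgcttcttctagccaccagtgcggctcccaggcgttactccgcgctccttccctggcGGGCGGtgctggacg
Axin2: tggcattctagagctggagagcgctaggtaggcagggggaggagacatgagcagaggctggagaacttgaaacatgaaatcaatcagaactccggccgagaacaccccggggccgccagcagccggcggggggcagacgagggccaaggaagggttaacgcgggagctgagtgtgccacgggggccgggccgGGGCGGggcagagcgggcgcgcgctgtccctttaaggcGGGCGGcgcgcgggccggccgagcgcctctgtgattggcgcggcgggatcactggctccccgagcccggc
The Fzd7 window held 7 matches to the GC box and was 66.7% G and C, and the Axin2 window held 2 and was 70.0% G and C. The string CTTTGAT, a form of the TCF/LEF core, was searched on both strands and had 0 matches in either window. Other forms of the core were not searched, so the windows are not shown to lack TCF/LEF sites. Over all 32851 windows of the same length, 35.7% held CCGCCC and 3.73% held CTTTGAT. Of the 34 windows that 30 members had, 24 held CCGCCC (70.6%) and 2 held CTTTGAT (5.88%), those of Wnt11 and Wnt5b. The gene model of GENCODE release M21 starts Fzd7 at 59482424, downstream of this window, so the start used by these tumours was not resolved by gene counts.

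Fzd2 (ENSMUSG00000050288, chromosome 11, 102604396 to 102608058, plus strand) encodes a Frizzled of the same subfamily as Fzd7. It was at 15.6, 7.35, 11.3, 4.16 and 5.72 CPM in KP 1 to KP 5 and at 16.5, 11.9, 19.3, 16.2 and 13.3 CPM in KPG1 1 to KPG1 5. The groups overlapped through KP 1, which lay above KPG1 2 and KPG1 5. Fzd2 had a log2 fold change of 0.96 (SE 0.31, 95% interval 0.27 to 1.65), close to that of Fzd7, but the spread within KP was wider, and at an unadjusted p of 0.0104 the limma adjusted p was 0.273. Without KP 1 it was 0.151, and in none of the alternatives did Fzd2 pass the threshold.

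Fzd6 (ENSMUSG00000022297, chromosome 15, 39006034 to 39038188, plus strand), known for planar polarity, had 42.8, 48.3, 51.0, 62.0 and 69.2 CPM in KP 1 to KP 5 and 57.7, 76.2, 57.0, 49.1 and 40.5 CPM in KPG1 1 to KPG1 5. Fzd4 (ENSMUSG00000049791, chromosome 7, 89404355 to 89413134, plus strand), known for its role in vessels, had 38.2, 98.7, 46.8, 64.8 and 60.01 CPM in KP 1 to KP 5 and 45.1, 83.3, 36.4, 44.0 and 64.9 CPM in KPG1 1 to KPG1 5. For both receptors the ranges of the groups overlapped broadly. The log2 fold change was 0.03 for Fzd6 (95% interval -0.38 to 0.43, limma adjusted p 0.969) and -0.16 for Fzd4 (95% interval -0.77 to 0.45, limma adjusted p 0.861). Fzd5, a β-catenin receptor of epithelia, varied least of the tested Frizzled genes, with 55.5 ± 5.90 CPM in KP and 49.98 ± 2.16 CPM in KPG1 and a log2 fold change of -0.15 (95% interval -0.38 to 0.09, limma adjusted p 0.632). Fzd1, Fzd3 and Fzd8 had log2 fold changes of 0.25, 0.35 and 0.13 with adjusted p-values of 0.665 to 0.899. Fzd9 and Fzd10 had at most 6 and 4 counts and were not tested.

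Of the 8 co-receptors and other receptors, 7 were tested and none passed the threshold (3 higher, 4 lower, limma adjusted p 0.482 to 0.978, 0 at an unadjusted p under 0.05). The co-receptors Lrp5 and Lrp6 were abundant, at 25.4 and 14.2 RPKM over all tumours. Lrp5 was 249 ± 42.8 CPM in KP and 246 ± 42.8 CPM in KPG1, with a log2 fold change of -0.02 (95% interval -0.37 to 0.33). Lrp6 was 174 ± 35.8 and 213 ± 31.9 CPM, with a log2 fold change of 0.30 (95% interval -0.05 to 0.65, limma adjusted p 0.494). Of the receptors of the β-catenin independent branch, Ror1 had a log2 fold change of 0.63 (95% interval -0.08 to 1.35, limma adjusted p 0.482), Ror2 of 0.26 (95% interval -0.98 to 1.49) and Ryk of -0.03 (95% interval -0.37 to 0.30). Lgr4, Lgr5 and Lgr6 are receptors for R-spondins, which raise Wnt sensitivity. Lgr4 was at 33.2 CPM in KP 4 and at 2.78 to 3.83 CPM in the other KP tumours, and its log2 fold change of -0.22 became 0.45 when KP 4 was left out. Lgr5 had at most 39 counts in a tumour and was not tested, and Lgr6 had a log2 fold change of -0.06 (95% interval -1.25 to 1.13).

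The 5 feedback genes all had higher fitted values in KPG1, and none passed the threshold (limma adjusted p 0.588 to 0.809, 0 at an unadjusted p under 0.05). Their median log2 fold change was 0.39, against 0.02 over all genes tested. Axin2 (ENSMUSG00000000142, chromosome 11, 108920349 to 108950783, plus strand) encodes a scaffold of the destruction complex. Its level was low, at 1.69, 2.33, 3.61, 1.53 and 1.01 CPM in KP 1 to KP 5 and 3.41, 2.20, 3.49, 2.57 and 1.82 CPM in KPG1 1 to KPG1 5. The highest value was in KP 3 and the groups overlapped widely. The log2 fold change was 0.52 (SE 0.34, 95% interval -0.23 to 1.27, limma adjusted p 0.588), so the interval held both 0 and a 2-fold higher level. It was 0.28 without KP 5 and up to 0.75 (without KP 3) when another tumour was left out, and 0.24 to 0.85 under the other settings. The antisense gene Gm11670 overlaps Axin2. Notum, a secreted enzyme that removes the lipid of Wnt proteins, had a log2 fold change of 0.56 (95% interval -0.61 to 1.73), which was 0.13 without KPG1 1. The antisense genes Notumos and Myadml2os overlap Notum. Nkd1, which acts on Dishevelled, had the highest level per length of the group, 11.2 RPKM in KP and 16.8 RPKM in KPG1. In CPM it was 51.0 ± 23.8 in KP and 76.4 ± 58.9 in KPG1, where KPG1 1 stood at 169 CPM. Its log2 fold change was 0.39 (95% interval -0.70 to 1.48), and 3.2e-05 without KPG1 1, 0.12 without KP 1 and 0.21 without KPG1 2. Rnf43 and Znrf3, ubiquitin ligases that remove Frizzled receptors from the membrane, had log2 fold changes of 0.22 (95% interval -0.14 to 0.58) and 0.18 (95% interval -0.15 to 0.51).

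The feedback genes were also compared with Axin2 across the 10 tumours in log2 CPM, as 4 relations, with permutation p-values from 1e+05 resamples. For Rnf43 Pearson's r was 0.70 (permutation p 0.0256, adjusted 0.0792) and Spearman's rho 0.75 (permutation p 0.0174, adjusted 0.0695). For Notum r was 0.65 (permutation p 0.0396, adjusted 0.0792) and rho 0.64 (permutation p 0.0539, adjusted 0.108). After adjustment over the 4 relations neither was under 0.05. Znrf3 and Nkd1 had r of 0.30 and 0.20 (permutation p 0.401 and 0.571, adjusted 0.535 and 0.571) and rho of 0.33 and 0.30 (permutation p 0.347 and 0.405, both adjusted to 0.405). Without KP 5 and KP 3, the tumours farthest from the median of Axin2, r was 0.65 for Rnf43, 0.65 for Notum, 0.31 for Znrf3 and 0.60 for Nkd1. Within KP and within KPG1, r was 0.85 and 0.31 for Rnf43, 0.48 and 0.89 for Notum, 0.50 and -0.22 for Znrf3 and -0.21 and 0.51 for Nkd1, each over 5 tumours and given without a test. Axin2 and Notum were scarce, at 2.03 and 0.698 CPM on average in KP.

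**Figure D4:**
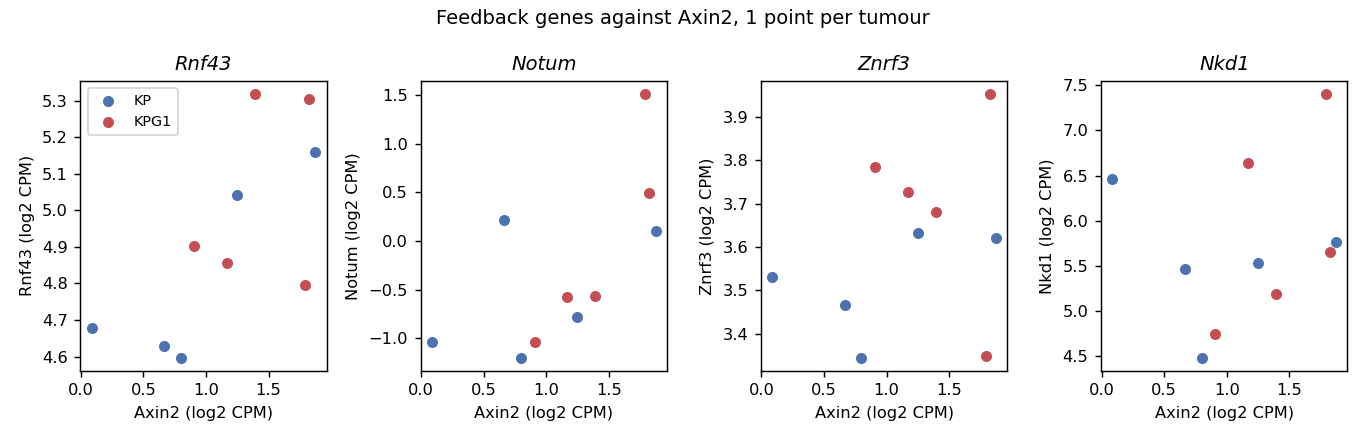
Log2 CPM of Rnf43, Notum, Znrf3 and Nkd1 (vertical axes) against log2 CPM of Axin2 (horizontal axis), 1 point per tumour, KP in blue and KPG1 in red. Pearson's r over the 10 tumours is 0.70 for Rnf43, 0.65 for Notum, 0.30 for Znrf3 and 0.20 for Nkd1, and none has an adjusted p under 0.05.

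Of the 4 secreted antagonists, Sfrp1 and Dkk3 were tested. Sfrp1, which binds Wnt ligands, ranged from 0.574 to 8.64 CPM in KP and from 0.363 to 3.31 CPM in KPG1, with a log2 fold change of -0.48 (95% interval -2.15 to 1.18, limma adjusted p 0.847), which was 0.07 without KP 1 and 0.02 without KPG1 3. Dkk3, a divergent member of the Dickkopf family, had a log2 fold change of -0.05 (95% interval -0.77 to 0.67, limma adjusted p 0.970). Sfrp2 and Dkk1 had at most 7 and 1 counts, so the Lrp-binding inhibitor Dkk1 was not measurable at this depth.

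The median SD of log2 CPM was 0.63 in KP and 0.40 in KPG1 for the 33 tested members, and 0.39 in KP and 0.26 in KPG1 over all genes tested. No test was run on this difference, and the medians were not matched for level. Several tested members were scarce, such as Wnt10b at 2 to 30 counts in KP, where counting error adds to the SD. The Frizzled genes Fzd5 and Fzd7 were among the steady members in KP, with an SD of 0.15 and 0.18 log2 CPM, whereas Fzd3, Lgr4 and Sfrp1 had an SD of 1.55, 1.46 and 1.37.

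**Figure D5:**
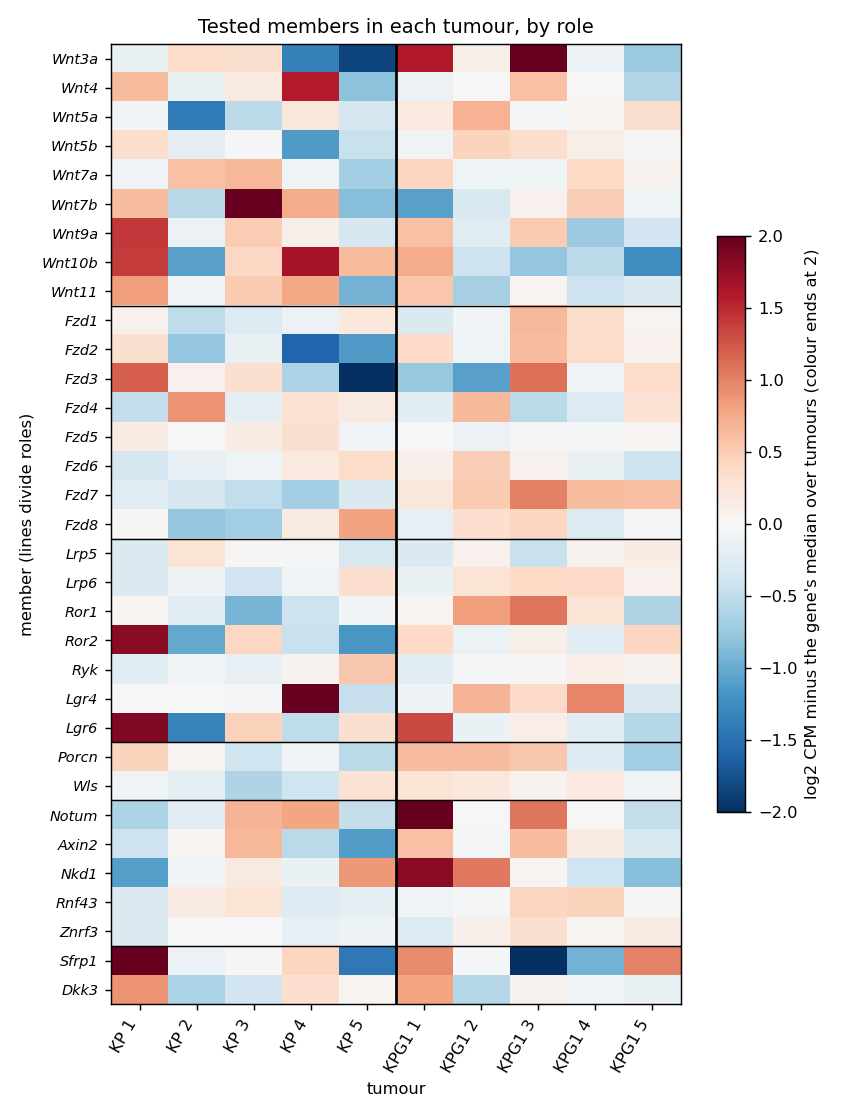
Deviation of log2 CPM from each gene's median over the 10 tumours for the 33 tested members (rows, grouped by role) in each tumour (columns), with red above and blue below the median and the colour ending at 2 either way. Fzd7 is the row that is blue in all 5 KP tumours and red in all 5 KPG1 tumours, and single dark cells such as Lgr4 in KP 4 and Wnt7b in KP 3 mark values of single tumours.

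Genes that act elsewhere in the pathway were counted in the same fit. Of 84 such genes 73 were tested and none passed the threshold in limma, with 13 at an unadjusted p under 0.05 (17.8%, 9 higher and 4 lower in KPG1, against 11.6% of all genes). DESeq2 called 5 of them and edgeR's test 0. Over all 16216 genes, DESeq2 called 125 higher and 423 lower in KPG1, and edgeR's test 11 and 29. The 17 genes of the destruction complex and Dishevelled had 6 higher and 11 lower fitted values and 0 at an unadjusted p under 0.05. The β-catenin gene Ctnnb1 had a log2 fold change with a 95% interval of -0.33 to 0.19. Of 15 TCF/LEF factors and cofactors 10 were higher and 5 lower, and of 15 genes commonly used as transcriptional targets 9 were higher and 6 lower. None of these targets passed the threshold (lowest limma adjusted p 0.0916). At an unadjusted limma p under 0.05 there were 6 of the 15 (40%, 3 higher and 3 lower), against 11.6% of all genes. The share was 6.67% for the TCF/LEF list and 27.3% for the 11 genes tested among R-spondins and other extracellular modulators. For the 14 tested genes of planar polarity and the calcium branch it was 14.3%. Fosl1 and Jun, which encode subunits of AP-1, had log2 fold changes of -1.74 and -0.75 (limma adjusted p 0.0916 and 0.187), and the growth regulator Myc had -0.62 (0.142) with no overlap between groups. Sp5 and Id2, transcriptional regulators, had 1.58 and 0.67 (0.312 and 0.257). The kinase gene Nlk, which acts on TCF/LEF factors, had 0.38 (0.205) with no overlap, the corepressor gene Tle1 had 0.44 (0.250), and Ndp, which encodes the Fzd4 ligand norrin, had -1.99 (0.245) at a level of at most 26 counts. Myc and Nlk were the only genes without overlap among the 73 tested (2.74%), a share close to the 2.81% of all genes. The R-spondin genes Rspo1, Rspo2, Rspo3 and Rspo4, whose products bind the Lgr receptors, had at most 10, 9, 5 and 0 counts in any tumour.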

How the data were processed

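Reads of the 10 libraries were, per the study's methods, single-end from a stranded mRNA kit, trimmed with Cutadapt and aligned to mm10 with HISAT2. The submitters' processing notes name featureCounts 1.4.4, whose strand setting and annotation release are not given in the sources used here. The authors deposited raw counts per Ensembl gene for 39017 genes, and a log2 table made by the authors with TMM and voom, which was used only to check the counts (spread of the offset at most 9.95e-14). Counts rise with gene length and depth, and reads without molecular identifiers include PCR copies, so precision taken from counts alone would cover counting error only. The SEs and intervals of the limma fit also include the spread between tumours. Here, genes were filtered with filterByExpr and TMM-scaled in edgeR 4.0.16, and KPG1 was compared with KP by voom and limma 3.58.1 in R 4.3.3, with genotype as the only term, 2-sided p-values adjusted by Benjamini-Hochberg over 16216 genes and a threshold of 0.05. The design followed the study's TMM, voom and limma, with filterByExpr in place of its filter on TPM. DESeq2 1.42.0, edgeR's quasi-likelihood test and other settings were alternatives, and the fits were tested on simulated counts. CPM used these TMM factors. Gene positions and merged exon lengths came from GENCODE release M21, and promoter windows from RefSeq.

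The members, the other pathway lists and the marker lists were chosen with earlier results of these data known. Values in every tumour are given for Fzd7, for members past the threshold, at an unadjusted p under 0.05 or without overlap, for Axin2, and for the 3 ligands and 3 Frizzled genes with the highest level per length. At most 12 other tested members were to be named for their role; more are named here, so that all members are accounted for. Of the other pathway genes the 8 with the smallest p are named; Ctnnb1 and the R-spondins were added for their role. The driver alleles shared by both groups are not reported here.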

Additional observations from a re-analysis of the deposited data

Results flagged for a closer look

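Log2 CPM was searched for single tumours that stood far from the other 4 of their group, by a gap divided by the range of the group above 0.71, Dixon's 95% critical value for 5 tumours. Of 84 groups searched 2 were past it, where chance would give about 4.2 at 1 in 20. Lgr4, the R-spondin receptor gene, was at 5.06 log2 CPM in KP 4 and at 1.5003 to 1.96 in the other KP tumours, with a gap of 0.871 of the range. Fosl1, the AP-1 subunit gene, was at 3.54 log2 CPM in KP 5 and at 4.82 to 5.23 in the other KP tumours, with a gap of 0.759 of the range.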

How the results depend on the processing

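The count of genes past the threshold, 28 with limma, was 548 with DESeq2, 43 without a filter on low counts, 228 with quality weights, 5 with the replicate block, 8 with the sample number as a covariate, 102 at an adjusted p under 0.1, and 4 to 294 when a tumour was left out, the highest without KP 5. The number of members past it, 1, was 0 with the replicate block and with the covariate and 0 to 1 when a tumour was left out. At an unadjusted p under 0.05 there were 6 members with edgeR, 6 with DESeq2, 6 with quality weights and 5 without a filter, in place of 3. The count over all genes rose as well, from 1877 of 16216 to 2022 with edgeR, 2274 with DESeq2 and 3104 with quality weights. Without a filter it was 2674 of 26233. Members without overlap numbered 1 to 2 when a tumour was left out, 2 without KP 1 or without KPG1 1. With fewer tumours a lack of overlap is easier to reach for any gene. The share over all genes is not given for these settings, so the second member is not read as a result. Of the other pathway genes, in place of 0, DESeq2 called 5, quality weights 2, the threshold of 0.1 called 1, and leaving out a tumour 0 to 1, with the call (Fosl1, adjusted p 0.00337) made without KP 5.

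The log2 fold change of Fzd7 was 1.00 with the replicate block (adjusted p 0.195), 0.78 with the covariate (0.298) and 0.90 to 1.08 when a tumour was left out. That of Slc2a1 was -1.04 with DESeq2 (0.000255), -1.13 with quality weights (0.0171) and -1.14 to -0.92 when a tumour was left out, past the threshold without KP 5 (0.0220). The labels number the replicates 1 to 5 in both groups, and the deviations of same-numbered tumours from their group means correlated at -0.12, 0.08, 0.06, 0.06 and -0.16, with 1 of 5 numbers correlating best with itself, so the numbers were not taken to pair the samples. The block left 5 calls of 28.

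Of the 33 tested members, 16 kept their fitted direction in every alternative in which they were tested and 17 did not in at least 1. The log2 fold change turned to -0.0040 for Wnt7a and -0.27 for Ror2 with edgeR, and to -0.014 and -0.27 with DESeq2. With quality weights it turned to -0.17 for Wnt7a, -0.013 for Fzd3, 0.089 for Ryk and 0.058 for Lgr6. With the sample number as a covariate it turned to 0.076 for Wnt4, 0.39 for Wnt11, -0.013 for Fzd1, 0.0037 for Fzd5, -0.21 for Fzd6, -0.39 for Fzd8, 0.079 for Lrp5, -0.0064 for Lrp6, 0.20 for Lgr4, 0.63 for Sfrp1 and 0.22 for Dkk3. Leaving out a tumour gave ranges on both sides of 0 for Wnt4 (-0.63 to 0.033), Wnt7a (-0.14 to 0.22), Fzd3 (-0.35 to 0.78), Fzd4 (-0.33 to 0.019), Fzd6 (-0.094 to 0.14), Fzd8 (-0.035 to 0.35), Lrp5 (-0.096 to 0.073), Ror2 (-0.087 to 0.78), Ryk (-0.096 to 0.080), Lgr4 (-0.51 to 0.45), Lgr6 (-0.41 to 0.37), Sfrp1 (-0.97 to 0.067) and Dkk3 (-0.27 to 0.17). The correlation of Nkd1 with Axin2 ranged from -0.063 to 0.55 and that of Rnf43 from 0.63 to 0.84, with an adjusted p of 0.0177 without KPG1 1. With the longest transcript as the length, the mean level of Wnt7b was 2.99 RPKM in place of 2.07. The cause of these differences was not tested.

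With 5 tumours a group, the 95% interval of 18 of the 32 members other than Fzd7 reached a 2-fold difference, and 12 members, with at most 39 counts in any tumour, were not tested.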
